A study of Mus musculus with 12 samples.

Results

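The genes described here are 10 metalloproteases and metalloprotease inhibitors of the mouse, taken by name: the matrix metalloproteases Mmp8, Mmp9, Mmp25 and Mmp14, the ADAM proteases Adam8, Adam10, Adam17 and Adam19, and the tissue inhibitors Timp1 and Timp2. They were not picked by a filter on their values, but earlier results of these data were known when they were chosen. By symbol and Ensembl identifier, 8 of the 10 (7 proteases and Timp2) had a row among the 11494 genes of the table. Mmp14 and Timp1 matched no row and were not analysed here.

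RNA was measured in 12 libraries of sorted blood neutrophils, 6 labelled with the genotype Control and 6 with the genotype LOY, which the series title spells out as loss of the Y chromosome in blood-forming cells. All 12 carried the same treatment label, Control, and all came from bone marrow transplant recipients whose RFP-positive, Ly6G-positive, CD115-negative cells were sorted at 10000 cells per library. The strain, age and sex of the recipients, and how the Y chromosome was removed, are not given in the sources used here. Nothing in the labels ties a library to its own mouse, so every p-value measures only the spread between these 12 libraries.

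Matrix metalloproteases and ADAMs are zinc-dependent proteases. They are made as inactive precursors whose prodomain has to be displaced or removed before the zinc can act. Neutrophils store Mmp8, the neutrophil collagenase that cleaves fibrillar collagen, mainly in specific granules, and Mmp9, the gelatinase that degrades denatured and basement membrane collagen, mainly in gelatinase granules. ADAMs sit in the membrane and shed the outer parts of other surface proteins, and TIMPs block the active site of the proteases. Granule proteins are made while the cells mature in the bone marrow, so a transcript level in a blood neutrophil is not a measure of the stored protein.

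The catalytic domains of all 8 protease genes share the elongated zinc-binding motif of the metzincins, in which 3 histidines hold the zinc and a glutamate drives catalysis. The 33 coding bases of that motif are shown because they are the sequence the proteases have in common and the inhibitors lack. They were read on the coding strand, 5′ to 3′, from the GENCODE vM21 transcripts of GRCm38. Capitals mark the codons of the 3 histidines, the glutamate and the conserved glycine.
Mmp8: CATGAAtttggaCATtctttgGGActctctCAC
Mmp9: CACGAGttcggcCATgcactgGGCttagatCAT
Mmp25: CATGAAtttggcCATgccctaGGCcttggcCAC
Mmp14: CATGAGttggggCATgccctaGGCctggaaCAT
Adam8: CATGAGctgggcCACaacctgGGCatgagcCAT
Adam10: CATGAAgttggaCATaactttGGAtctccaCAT
Adam17: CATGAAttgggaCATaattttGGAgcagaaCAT
Adam19: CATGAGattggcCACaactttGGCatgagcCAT

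The Mmp8 stretch lies in exon 5 at chr9:7563086-7563118 on the plus strand and the Mmp9 stretch in exon 8 at chr2:164951133-164951165 on the plus strand. Those of Mmp25 (chr17:23632843-23632875, minus strand) and Mmp14 (chr14:54437627-54437659, plus strand) lie in exon 5. Those of Adam8 (chr7:139987893-139987925, minus strand), Adam17 (chr12:21336732-21336764, minus strand) and Adam19 (chr11:46125050-46125082, plus strand) lie in exon 11. The Adam10 stretch is split between exons 9 and 10, so its span of chr9:70754296-70761585 on the plus strand includes an intron. Of the 33 bases, 29 were identical between Adam8 and Adam19, 26 between Adam10 and Adam17, 26 between Mmp25 and Mmp14, and 20 between Mmp8 and Mmp9. The lowest identity was 17 bases, found between Mmp8 and Adam8 and between Mmp9 and Adam10. The motif was found in the coding sequence of 68 of 21901 genes, or 0.310%, and in neither Timp1 nor Timp2. Of those 68 genes, 19 were in the table. The 7 proteases measured here made up 98.0% of the summed level per kilobase of these 19 genes, and Mmp9 and Mmp8 alone 85.8%. These shares are a description only, since earlier results of these data were known when the 7 were chosen.

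The values are the normalized reads that the authors deposited, in which each library's read counts had been divided by 1 factor. The counts recovered from them ranged from 13743581 to 19616066 in all per library. The libraries Control 1, 2 and 12 stood apart, with 17.3% to 21.7% of listed genes at 0 against 6.59% to 11.6% in the other 9, so differences that rest on them are also given without them. Summed levels of marker genes are given per 1000000 normalized reads. That of 4 Y-linked genes was 155 to 254 in the controls and 0.162 to 86.3 in the LOY libraries, and the highest LOY value belonged to LOY 4. Neutrophil markers summed to 75869 to 125333 in the controls and 77092 to 105997 in the LOY libraries. Erythroid markers summed to 4283 to 8889.8 in the controls and 5906 to 38021 in the LOY libraries, with LOY 15 highest and LOY 10 next at 11137. The listed monocyte markers (4 of 10) summed to 773 to 1494 in the controls and 996 to 1463 in the LOY libraries. Ccr2 and Cx3cr1 were among the monocyte markers that matched no row. The marker sums of B cells, platelets, T and NK cells, eosinophils and basophils, and stromal cells were at most 468 in any library.

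None of the 8 measured genes passed the test of LOY against control neutrophils across all genes. With limma on log2(value + 1) and Benjamini-Hochberg adjustment over 9742 genes, 0 of 8 passed the threshold of 0.05, and 0 of 8 had an unadjusted p under 0.05. Over all tested genes 0.0205% passed and 6.04% had an unadjusted p under 0.05. On the recovered reads, edgeR and DESeq2 also called 0 of 8, against 0% and 0.493% of all genes tested. At an unadjusted p under 0.05 each had 0 of 8, against 2.94% of genes in edgeR and 5.55% in DESeq2. In the authors' deposited table none of the 8 passed (0 of 8), where 0.493% of genes did. The log2 fold changes of that table equalled those of DESeq2 on the recovered reads to 2 decimals for all 8 genes, so the pair is 1 result and not a second check. The LOY and control libraries overlapped for all 8 genes, and 0.287% of tested genes had groups that did not overlap. Of the 8 log2 fold changes 4 were above 0 and 4 below, with a median of 0.05, beside a median of 0.14 over all tested genes and 0.00 over the 3582 genes whose mean was at least 500. In bulk RNA, fewer cells with a transcript and less transcript per cell cannot be told apart.

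**Figure D1:**
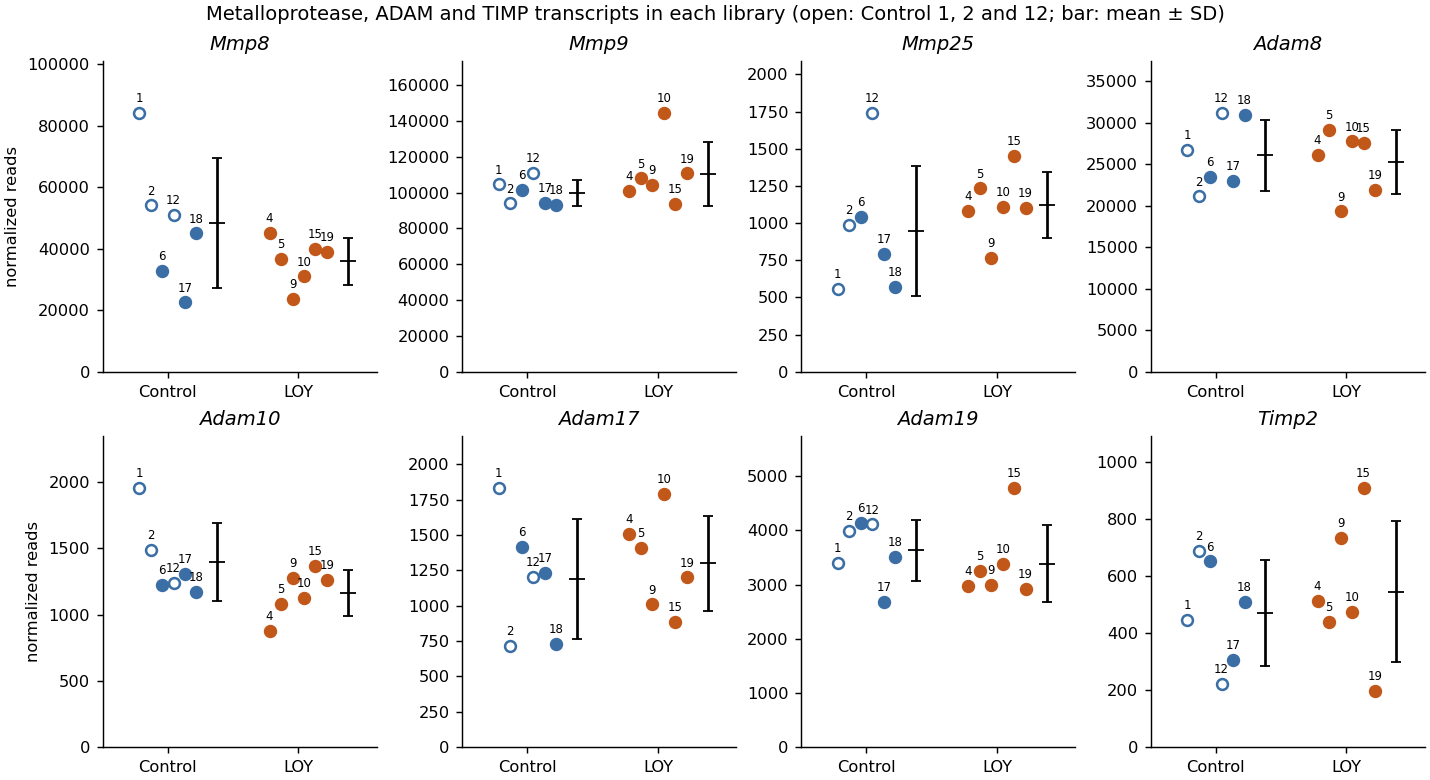
Normalized reads of each gene (vertical axes, linear, from 0) in the 6 control (blue) and 6 LOY (orange) libraries, with the library number above each point; bars are the mean ± SD and open points are Control 1, 2 and 12. The groups overlap in all 8 panels, and the 3 open points are the 3 highest values of Mmp8.

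The collagenase Mmp8 (ENSMUSG00000005800, GRCm38 chr9:7558456-7568485, plus strand) was abundant and varied widely among the controls. Mmp8 read from 22580.2 to 84120.2 normalized reads in the controls (median 48019) and from 23666 to 45116 in the LOY libraries (median 37783). Its mean was 48258 ± 21157 in the controls and 35900.1 ± 7555 in the LOY group (± SD over 6 libraries each). All 6 LOY libraries lay within the range of the controls, and the 3 highest values of the 12 belonged to Control 1, 2 and 12, at 51093 to 84120.2 normalized reads. The other 9 libraries ranged from 22580.2 to 45116, and the remaining 3 controls averaged 33429.7. The log2 fold change of LOY over control was -0.34 ± 0.27 (SE; 95% interval -0.92 to 0.25; limma, adjusted p = 0.847), so the interval spans 0.527 to 1.19 of the control level. Without Control 1, 2 and 12 it was 0.13 ± 0.24 (SE, limma, adjusted p = 0.982), and a fit that held the share of zero values as a covariate gave 0.11. The sign of the Mmp8 difference thus depended on those 3 libraries. With single libraries left out it stayed below 0, from -0.53 without Control 17 (unadjusted p = 0.0355, limma adjusted p = 0.650) to -0.15 without Control 1. The authors' deposited table gave a log2 fold change of -0.43 for Mmp8.

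Mmp8 also varied more within its groups than most of the other highly abundant genes. The pooled SD within groups on the log2 scale was 0.52. That was larger than the SD of 187 of the other 200 most abundant tested genes, whose median was 0.20. The coefficient of variation was 43.8% in the controls and 21.0% in the LOY libraries.

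The gelatinase Mmp9 (ENSMUSG00000017737, chr2:164940780-164955850, plus strand) had the highest level per kilobase of exon among the 8 genes and ranked 27 among the 11475 listed genes with an exon length. Mmp9 read from 93099 to 111139 normalized reads in the controls (median 97832) and from 93818 to 144489 in the LOY libraries (median 106187). Its mean was 99737 ± 7273 in the controls and 110409 ± 17700.4 in the LOY group (± SD over 6 libraries each). All libraries except LOY 10 lay between 93099 and 111139, and LOY 10 was the highest at 144489. The log2 fold change was 0.14 ± 0.09 (SE; 95% interval -0.06 to 0.33; limma, adjusted p = 0.826), an interval of 0.959 to 1.26 of the control level. Without LOY 10 it was 0.06, and without Control 1, 2 and 12 it was 0.19. The SD within groups of Mmp9 on the log2 scale was 0.17, below the median of 0.20 for the other 200 most abundant tested genes.

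**Figure D2:**
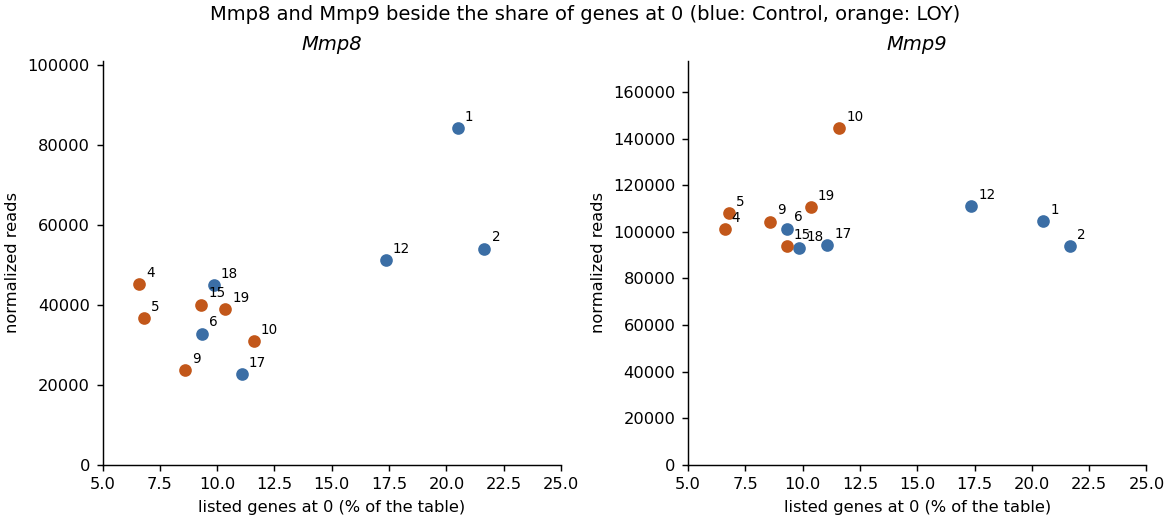
Normalized reads of Mmp8 (left) and Mmp9 (right) against the share of listed genes at 0 in the same library (percent of the table), with 1 numbered point per library, controls in blue and LOY in orange. The 3 libraries with 17.3% to 21.7% of genes at 0 hold the 3 highest Mmp8 values, while their Mmp9 values lie between 93947 and 111139.

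The balance of the 2 granule proteases differed between libraries. Per kilobase of exon, Mmp8 stood at 0.350 to 1.17 of Mmp9 in the controls (median 0.688) and at 0.313 to 0.652 in the LOY libraries (median 0.504). Mmp9 was the higher of the pair per kilobase in 11 of 12 libraries, and Control 1, with the ratio of 1.17, was the exception. The ratio was 0.671 to 1.17 in Control 1, 2 and 12 and 0.313 to 0.705 in the other 9 libraries, so these ranges overlapped.

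Mmp25 (ENSMUSG00000023903, chr17:23628311-23645277, minus strand), a protease held on the neutrophil surface by a lipid anchor, was present at a far lower level per kilobase of exon. Mmp25 read from 557 to 1741 normalized reads in the controls (median 891) and from 768 to 1449 in the LOY libraries (median 1108). Its mean was 949 ± 438 in the controls and 1125 ± 222 in the LOY group (± SD over 6 libraries each). The highest value was that of Control 12 and the lowest that of Control 1, so the controls spanned the whole LOY range. The log2 fold change was 0.33 ± 0.27 (SE; 95% interval -0.25 to 0.92; limma, adjusted p = 0.849). The estimate was 0.20 without Control 1 and 0.21 without Control 18. It was 0.53 without Control 12 (unadjusted p = 0.0352, limma adjusted p = 0.719), and 0.50 ± 0.24 without Control 1, 2 and 12 (adjusted p = 0.937).

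Among the ADAMs, Adam8 (ENSMUSG00000025473, chr7:139978932-139992562, minus strand), a sheddase of leukocyte surfaces, had by far the highest level per kilobase. Adam8 read from 21126 to 31185 normalized reads in the controls (median 25111) and from 19313 to 29119 in the LOY libraries (median 26867). Its mean was 26089.8 ± 4268 in the controls and 25303 ± 3845 in the LOY group (± SD over 6 libraries each). The groups covered nearly the same range. On the log2 scale LOY minus control was -0.04 ± 0.13 (SE; 95% interval -0.32 to 0.23; limma, adjusted p = 0.950), which spans 0.803 to 1.17 of the control level. Leaving out Control 12, Control 18 or LOY 9 moved the estimate above 0, to at most 0.03. Adam8 overlaps Gm16201 on the other strand, and the library kit does not mark strand, but Gm16201 read 26.2 ± 23.1 in the controls and 56.7 ± 46.3 in the LOY libraries, far below Adam8.

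Adam19 (ENSMUSG00000011256, chr11:46055992-46147343, plus strand), which sheds neuregulins among other proteins, came next per kilobase. Adam19 read from 2679.7 to 4135 normalized reads in the controls (median 3747) and from 2916 to 4784 in the LOY libraries (median 3129). Its mean was 3636 ± 563 in the controls and 3386 ± 709 in the LOY group (± SD over 6 libraries each). LOY 15 was the highest library of all 12, and the other 5 LOY libraries lay at 2916 to 3386, inside the control range. LOY 15 was also the library with the highest erythroid sum, and the part of that in its Adam19 level was not tested. The difference on the log2 scale was -0.11 ± 0.15 (SE; 95% interval -0.43 to 0.21; limma, adjusted p = 0.887), -0.21 without LOY 15 and -0.02 without Control 1, 2 and 12.

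Adam10 and Adam17 are the widely expressed sheddases, Adam10 of Notch receptors and Adam17 of the TNF precursor and TNF receptors. Adam10 read from 1169 to 1957 normalized reads in the controls (median 1273) and from 879 to 1367 in the LOY libraries (median 1191). Its mean (ENSMUSG00000054693, chr9:70678997-70780229, plus strand) was 1398 ± 295 in the controls and 1165 ± 175 in the LOY group (± SD over 6 libraries each). LOY 4, 5 and 10 lay below every control, and Control 1 was the highest library. The log2 fold change of Adam10 was -0.25 ± 0.16 (SE; 95% interval -0.60 to 0.09; limma, adjusted p = 0.823), the smallest p of the 8 genes at an unadjusted 0.137. It was -0.10 without Control 1, 2 and 12, -0.01 when the share of zero values was a covariate, and -0.17 without LOY 4, the LOY library with the highest Y-linked sum. The SD within groups of Adam10 on the log2 scale was 0.25, and only 12 of the 200 tested genes nearest in level had a smaller one (median 0.44).

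Adam17 read from 717 to 1832 normalized reads in the controls (median 1219) and from 882 to 1790.4 in the LOY libraries (median 1303). Its mean (ENSMUSG00000052593, chr12:21323509-21373632, minus strand) was 1188 ± 425 in the controls and 1299 ± 336 in the LOY group (± SD over 6 libraries each). Control 1 and LOY 10 were the highest and Control 2 and 18 the lowest, so both extremes lay in the controls. On the log2 scale the difference was 0.17 ± 0.26 (SE; 95% interval -0.39 to 0.73; limma, adjusted p = 0.905). It was 0.04 without Control 2, 0.04 without Control 18, 0.07 without LOY 10 and 0.31 without Control 1. Adam17 overlaps Iah1 at its end on the other strand, which read 237 ± 141 in the controls and 297 ± 77.3 in the LOY libraries. Per kilobase, Adam10 stood at 0.849 to 3.02 times Adam17 across the 12 libraries.

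The inhibitor Timp2 (ENSMUSG00000017466, chr11:118301069-118355740, minus strand), which blocks most matrix metalloproteases and also takes part in activating Mmp2 at the membrane, had the lowest level per kilobase of the 8 genes. Timp2 read from 221 to 689 normalized reads in the controls (median 478) and from 196 to 909 in the LOY libraries (median 494). Its mean was 470.4 ± 186 in the controls and 544 ± 248 in the LOY group (± SD over 6 libraries each). LOY 15 was the highest library and LOY 19 the lowest, so the LOY group spanned every control. The estimated log2 difference was 0.17 ± 0.39 (SE; 95% interval -0.68 to 1.02; limma, adjusted p = 0.938), an interval of 0.625 to 2.03 of the control level. It was -0.03 without Control 12 and -0.01 without LOY 15. Without Control 1, 2 and 12 it was 0.08, and without LOY 19 it was 0.43. Recovered reads of Timp2 ranged from 227 to 1018 per library. Timp2 overlaps Cep295nl, a protein-coding gene on the same strand that had no row, and how reads in the overlap were counted was not tested.

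**Figure D3:**
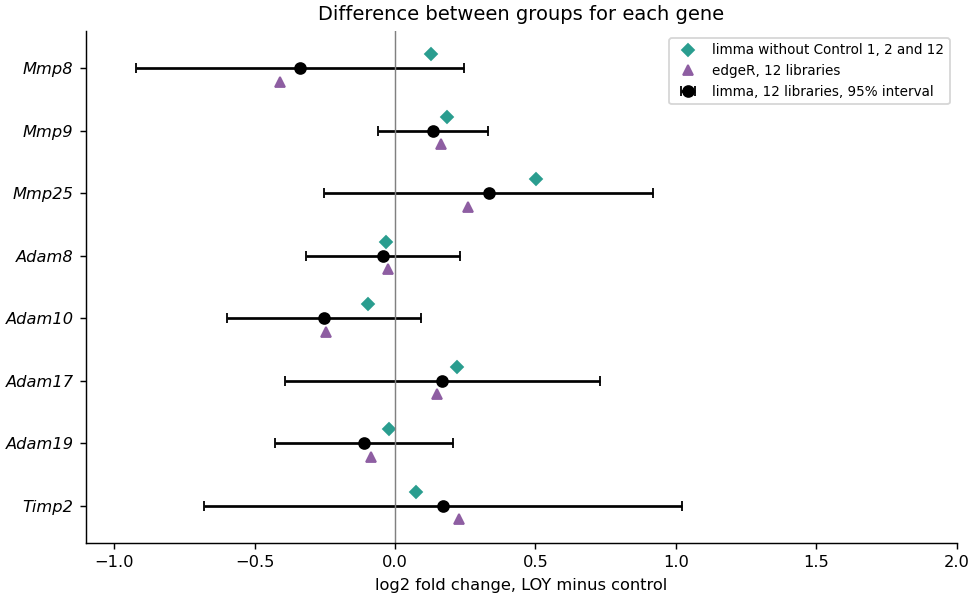
Log2 fold change of LOY over control for each gene (horizontal axis, log2 scale), with the limma estimate and 95% interval over 12 libraries in black, the limma estimate without Control 1, 2 and 12 as green diamonds, and the edgeR estimate as purple triangles. All 8 intervals include 0, and the Mmp8 estimate moves from -0.34 to 0.13 without the 3 controls.

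Together the 8 genes took 0.920% to 1.27% of normalized reads per library, with means of 1.09% in the controls and 1.10% in the LOY libraries. Per kilobase of exon, the order of mean levels over the 12 libraries was Mmp9 at 29690.1 ± 3971, Mmp8 at 17352 ± 6789, Adam8 at 5540.4 ± 839.7, Adam19 at 493 ± 87.7, Adam10 at 261 ± 53.2, Mmp25 at 195 ± 64.8, Adam17 at 174 ± 51.7 and Timp2 at 130.2 ± 54.5 (SD, n = 12). The steps from Mmp8 to Adam8 and from Adam8 to Adam19 held in all 12 libraries with no overlap of ranges, and the latter was 11.2-fold. Adam19 was higher than Adam10 in all 12 libraries as well, though their ranges overlapped. Lower down the order was not fixed: Adam10 exceeded Mmp25 in 9 libraries, Mmp25 exceeded Adam17 in 7, and Adam17 exceeded Timp2 in 8. The summed level per kilobase of the 3 matrix metalloproteases was 186 to 944 times that of Timp2, with the median at 402 in the controls and 383 in the LOY libraries. No level of Timp1 enters that ratio.

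**Figure D4:**
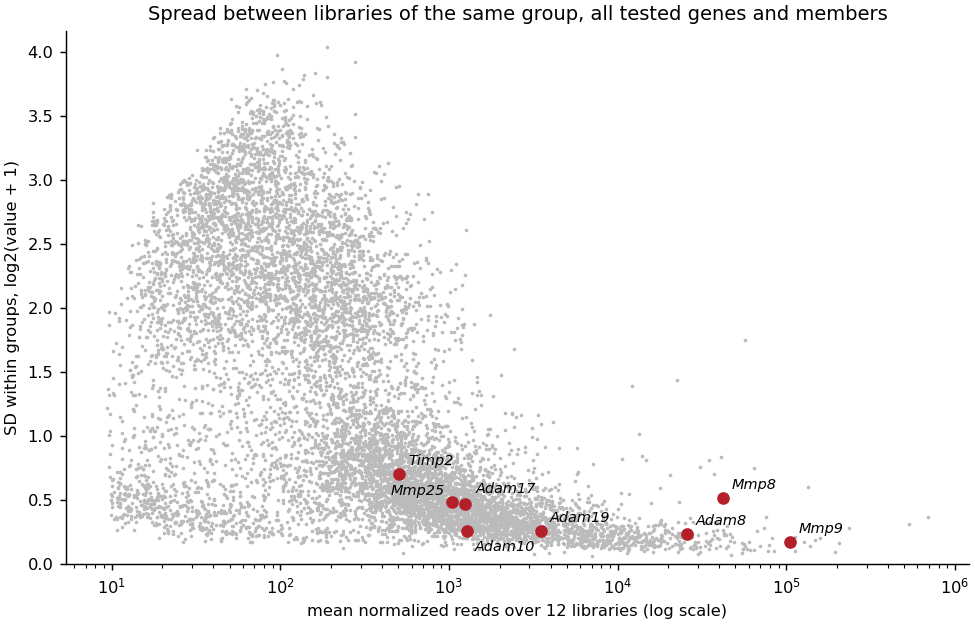
SD within groups of log2(value + 1) (vertical axis) against mean normalized reads over 12 libraries (log axis), with all tested genes in grey and the 8 genes in red. Mmp8 at 0.52 lies above 187 of the other 200 most abundant tested genes, and Mmp9 lies low at 0.17.

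Pairs of the 8 genes were compared across the 12 libraries. Of 28 pairs, 0 passed a permutation test of Pearson's r after Benjamini-Hochberg adjustment, and 1 had an unadjusted p under 0.05. That pair was Mmp9 and Adam17, with r = 0.63 (permutation p = 0.0192, adjusted p = 0.536) and Spearman's rho = 0.56 (permutation p = 0.0618, adjusted p = 0.733) over 12 libraries. The r was 0.49 without Control 18 and LOY 10, the libraries farthest from the median of Mmp9. It was 0.64 within the controls and 0.75 within the LOY libraries. The 2 stored granule proteases, Mmp8 and Mmp9, had r = -0.12 and Spearman's rho = -0.13 (permutation p = 0.701 and 0.699, adjusted p = 0.892 and 0.815).

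The genes whose log2 levels followed each of the 8 most closely were sought among 3581 others with a mean of 500 or more, and Pearson's r over the 12 libraries is given as a description. All these values share the same libraries and their shares of genes at 0. They are the highest of many, and how high r would reach by chance was not tested. For Mmp8 they were Satb1 at 0.93, Mocs1 at 0.92 and Mafg at 0.92, and without Control 1, 2 and 12 these were 0.89, 0.82 and 0.83. For Mmp9 they were Cotl1 at 0.85, Mdh2 at 0.84 and Cant1 at 0.82. The closest to Mmp25 were Usp32, Id1 and Mapre1 (0.83, 0.83 and 0.81). The closest to Adam8 were Amdhd2, Hdc and Rhbdf2 (0.86, 0.83 and 0.82), and to Adam10 N4bp1, 2010107E04Rik and Tnfrsf1a (0.90, 0.86 and 0.83). Adam17 was followed by Gsn, Lipa and Cyfip2 (0.87, 0.84 and 0.84), Adam19 by Acot7, Nipsnap2 and Rara (0.84, 0.80 and 0.79), and Timp2 by Fam46c, Htatip2 and Otub1 (0.85, 0.83 and 0.78). Without Control 1, 2 and 12, r for the genes other than Mmp8 ranged from 0.62 (Adam10 with 2010107E04Rik) to 0.93 (Adam8 with Rhbdf2).

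The partners of these proteases were read from the same fit, as lists of genes that activate, carry, resemble or inhibit them or that they cleave. Of 162 listed partner genes, 63 were in the table and 54 were tested. By limma 0 of 54 passed and 5 (9.26%) had an unadjusted p under 0.05, beside 0.0205% and 6.04% of all tested genes. By edgeR 0 passed and 3 (5.56%) had an unadjusted p under 0.05, beside 0% and 2.94%. By DESeq2 1 passed (1.85%) and 6 (11.1%) had an unadjusted p under 0.05, beside 0.493% and 5.55%. In limma 33 of the 54 log2 fold changes were above 0 (61.1%, beside 60.9% of all tested genes), with a median of 0.06 beside 0.14. The gene that passed in DESeq2 was Ltf.

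Few relatives of the 8 genes had a row in the table. Of 19 other matrix metalloproteases, Mmp2 and Mmp27 were listed, and Mmp2 read 109.7 ± 102 in the controls and 128 ± 33.2 in the LOY libraries. Of 29 other ADAMs, 7 were listed and 2 tested. Adam15 read 829.7 ± 175 in the controls and 969 ± 441 in the LOY libraries, with a log2 fold change of 0.11 ± 0.30. Adam9 read 127 ± 172 in the controls and 198 ± 80.7 in the LOY libraries, with 1 control at 0. Its log2 fold change was 2.86 ± 1.34 (limma adjusted p = 0.810), or 1.92 ± 1.62 without Control 1, 2 and 12. In the authors' deposited table it was 0.64. The limma values exceed the fold of the means, since Control 1, 6 and 12 read 3.23, 0 and 9.16. Control 6 stays in the fit without Control 1, 2 and 12. Of 24 ADAMTS genes 3 were listed, with Adamts10 highest at 577 ± 392 in the controls and 899.9 ± 264 in the LOY libraries and a log2 fold change of 1.53 ± 0.96, or 0.08 ± 0.26 without Control 1, 2 and 12. Of 6 other inhibitors Reck, a membrane-bound inhibitor of matrix metalloproteases, was listed, at 217 ± 257 in the controls and 216 ± 81.9 in the LOY libraries.

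Genes that mature or carry the proteases had 9 of 17 members tested, with 0 past the threshold. In limma 8 of 9 log2 fold changes were above 0 (88.9%, beside 60.9% of all tested genes), with a median of 0.29 beside 0.14. Bsg, which encodes basigin, also called the extracellular matrix metalloprotease inducer, had the smallest p. It read 1468 ± 267 in the controls and 1933 ± 234 in the LOY libraries, with a log2 fold change of 0.41 ± 0.14 (unadjusted p = 0.0135, limma adjusted p = 0.762). Rhbdf2, the inactive rhomboid that brings Adam17 to the cell surface, read 3787 ± 502 in the controls and 3875 ± 709 in the LOY libraries, with a log2 fold change of 0.02 ± 0.14. Furin, which removes prodomains, had a log2 fold change of 0.29 ± 0.34. For Tspan14, a tetraspanin partner of Adam10, it was 0.94 ± 0.56, and Control 1, 2 and 12 at 228 to 1692 normalized reads of Tspan14 lay below the other 9 libraries at 2195 to 3548. Without these 3 controls the log2 fold change of Tspan14 was -0.10 ± 0.18. Leaving them out also moved Dlg1 from 0.20 to -0.66 and Tspan5 from -0.40 to 0.25. In the authors' deposited table Tspan5, Tspan17 and Dlg1 were below 0, at -0.56, -0.30 and -0.06, and the others of the 9 above. The share above 0 thus depended on the fit and on these controls.

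Surface proteins that the proteases shed had 16 of 27 members tested, with 0 past the threshold and a median of 0.00. Csf1r encodes the macrophage colony-stimulating factor receptor, CD115, the marker that the sort excluded, and is 1 of the 4 listed monocyte markers. It read 9279 ± 2572 in the controls and 12442 ± 2295 in the LOY libraries, with a log2 fold change of 0.45 ± 0.19 (unadjusted p = 0.0358, limma adjusted p = 0.810), or 0.22 ± 0.17 without Control 1, 2 and 12. The log2 fold changes of the other 3 monocyte markers were -0.57 for Ly6c2, -0.23 for Adgre1 and -0.08 for Cd68. Without Control 1, 2 and 12, which held the 3 highest values of Ly6c2, they were 0.07, -0.18 and -0.15. For the TNF receptor gene Tnfrsf1a the log2 fold change was -0.17 ± 0.07 (unadjusted p = 0.0386, limma adjusted p = 0.810), and Control 1, 2 and 12 held its 3 highest values. Without them it was -0.09 ± 0.09.

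Genes of granule content and membrane had all 19 members tested, with 0 past the threshold, 9 log2 fold changes above 0, 10 below and a median of -0.09. Itgam is in this list and among the shed surface proteins. Its row used for all partner counts read 277 ± 128 in the controls and 256 ± 19.6 in the LOY libraries. Another row of the same name was left out, and its log2 fold change in the authors' deposited table was 0.04. Ltf, the lactoferrin gene whose product is stored in the same granules as Mmp8, read 99.3 ± 87.2 in the controls and 789.8 ± 508 in the LOY libraries, with a log2 fold change of 3.84 ± 1.13 and a limma adjusted p of 0.602. Without Control 1, 2 and 12 it was 2.39 ± 0.66 (limma adjusted p = 0.937). The adjusted p of Ltf was 0.0345 in the authors' deposited table. Camp, the cathelicidin gene of those granules, read 64.9 ± 84.8 in the controls and 183 ± 45.1 in the LOY libraries, with a log2 fold change of 2.78 ± 1.00 (limma adjusted p = 0.762), or 1.15 ± 0.57 without Control 1, 2 and 12. The fitted value exceeds the fold of these means, since Control 1 and 2 lie near 0. The highest reads of the list were those of Lyz2, the lysozyme gene, at 262856 ± 52414 in the controls and 209665 ± 37513 in the LOY libraries. Among the plasminogen and serine protease genes 0 of 4 tested passed, and Slpi, an inhibitor of neutrophil serine proteases, read 80447 ± 6062 in the controls and 84981 ± 17911 in the LOY libraries. Of 10 collagen and other matrix genes that the proteases cut, 1 was listed and 0 were tested.

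**Figure D5:**
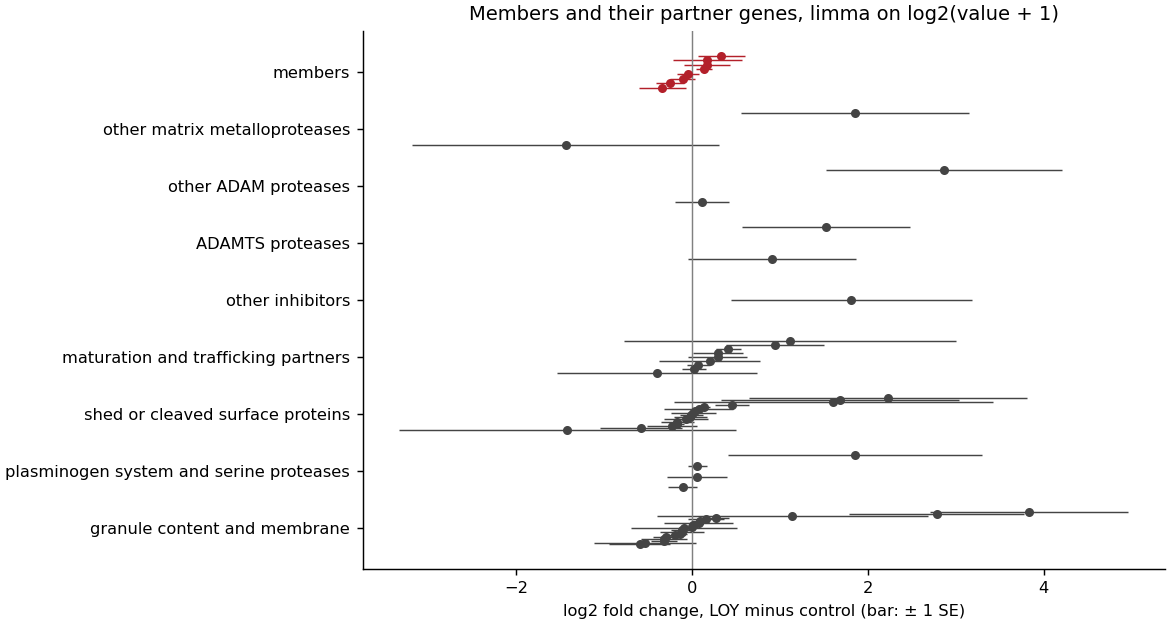
Log2 fold changes of LOY over control from limma (horizontal axis, bars ± 1 SE) for the 8 genes in red and the tested members of each partner list in grey, ordered by value within a list. The 8 genes lie between -0.34 and 0.33, and the partners furthest from 0, such as Ltf at 3.84, have wide bars.

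Of the 19 granule genes 5 had, as Mmp8 did, higher values in each of Control 1, 2 and 12 than in any of the other 9 libraries, and the other 14 overlapped. Those 5 were Lcn2, Ngp, Cd177, Lyz2 and Rab27a. Of the 6 neutrophil markers only Retnlg did so, and S100a8, S100a9, Ly6g, Csf3r and Cxcr2 overlapped. For S100a8, S100a9 and Ly6g, LOY 10 alone of the other 9 libraries reached the range of Control 1, 2 and 12. Among the shed surface proteins and monocyte markers, Il1r2, Tnfrsf1a and Ly6c2 were also higher in each of Control 1, 2 and 12 than elsewhere. Lcn2, lipocalin 2 of specific granules, ranged from 28311 to 34499.9 normalized reads in these 3 libraries and from 12517 to 28135 in the other 9. For Ngp, the neutrophilic granule protein, the ranges were 4198 to 7363 and 416 to 3229. Cd177, a neutrophil surface protein, ranged from 11241 to 14686 against 4861 to 8744, and Retnlg, a neutrophil marker, from 181961 to 230499 against 61910 to 163614. Ltf and Camp, among the 14 that overlapped, had 6.45, 1.28 and 232 normalized reads of Ltf and 2.15, 2.56 and 53.1 of Camp in Control 1, 2 and 12. Of the 3582 genes whose mean was at least 500, 96 (2.68%) were above all other libraries in these 3 and 57 (1.59%) below. These 3 libraries were singled out by their share of genes at 0, and not by Mmp8.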

How the data were processed

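Blood neutrophils were sorted from 6 control and 6 LOY samples, cDNA was made with SMART-Seq v4, which does not mark strand, and libraries with Nextera XT, per the labels' protocols. Per the submitters' processing notes, the tools were STAR 2.5.2b, Subread 1.5.2 with featureCounts, Trimmomatic 0.36 and bcl2fastq 2.17, on GRCm38 (mm10). What the authors deposited is a normalized signal for 11494 genes in each of the 12 libraries. Within a tolerance of 0.02 reads, 100.0% of a library's values were whole multiples of 1 number, so the deposited signal is a read count over 1 size factor, and 13743581 to 19616066 reads per library were recovered. The table also holds log2 fold changes and p-values by the authors, per the file headers, and their tool is not named in any source used here. Spreadsheet dates in place of 16 gene names were restored from identifiers. Of the identifiers, 11475 were found in GENCODE vM21, which gave positions and the exon length behind values per kilobase. The lowest mean listed was 8.63 normalized reads, so a gene with no row may lie under such a limit.

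Groups came from the genotype labels. Values were tested as log2(value + 1) with limma 3.58.1 in R 4.3.3 (trended, robust empirical Bayes, no covariate), on the 9742 genes that reached 10 in 6 or more libraries, with Benjamini-Hochberg adjustment over all of them at 0.05. This scale can understate the change of low genes. Where a control lies at or near 0, the fitted log2 fold change can instead exceed that of the means. For Adam9 it was 2.86, against 0.64 in the authors' deposited table. Correlations were tested with 100000 permutations (scipy 1.17.1). The scripts were tested on simulated data. The genes and partner lists were chosen with earlier results of these data known. The text names all 10 genes, in each partner list the tested gene with the smallest p and the most abundant one, more where their role bears on the 10, and for each of the 8 the 3 genes of highest correlation, except 1 partner gene that is not reported here. Other genes named for Control 1, 2 and 12 were chosen after their values were seen. Alternatives were edgeR 4.0.16 and DESeq2 1.42.0 on the recovered reads, pseudocounts of 0.5 and 5, TMM and quantile scaling, a minimum mean of 50, no filter, the share of zero values as a covariate, each library left out in turn, and Control 1, 2 and 12 left out together. The groups share no replicate number.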

Additional observations from a re-analysis of the deposited data

Results flagged for a closer look

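In 16 groups of 6 libraries (8 genes in each genotype), Dixon's test for a single value far from the rest marked 2, where chance marks about 1 in 20 groups. Mmp9 in LOY 10 read 144489 normalized reads, and its gap to the next LOY library was 0.666 of the group's range, over the critical value of 0.625. Adam19 in LOY 15 read 4784, with a gap of 0.749 of the range. LOY 15 also held the highest Timp2 value of the 12 libraries and the highest summed level of erythroid markers, at 38021 per 1000000 normalized reads. Whether that level had a part in its Adam19 value was not tested.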

How the results depend on the processing

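Over 22 alternatives, 12 of which left out 1 library, 0 of 176 values of the 8 genes passed the threshold, 169 kept their direction and 7 changed sign. Mmp8 was 0.11 with the share of zero values as a covariate and 0.13 without Control 1, 2 and 12, while leaving out single libraries gave -0.53 (without Control 17) to -0.15 (without Control 1). Leaving out single libraries gave -0.10 to 0.032 for Adam8, with the sign changed without Control 12, Control 18 or LOY 9, and -0.025 to 0.43 for Timp2, with the sign changed without Control 12 or LOY 15. Over all tested genes limma called 2. It called 0 with quantile scaling, with a mean of 50 or more, with the share of zero values as a covariate and without Control 1, 2 and 12, and 0 to 15 with 1 library left out (15 without Control 6). On the recovered reads edgeR called 0 and DESeq2 54. Among the partner genes DESeq2 called 1, Ltf, where limma called 0. The median log2 fold change of all genes was 0.14 with limma, -0.01 with edgeR, -0.02 with DESeq2 and 0.00 with quantile scaling, and 0.00 with limma over the 3582 genes whose mean was at least 500, as that of each of the 8 genes was. Depth was lowest for Timp2 among the 8 genes, at 227 to 1018 reads per library.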

Other observations

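Outside the 10 genes, 12 listed genes held the zinc-binding motif in their coding sequence, and Ndufb3, a subunit of mitochondrial complex I and no protease, was the most abundant of them at 522 normalized reads per kilobase. Adam15 followed among the proteases at 146 per kilobase and Adamts10 at 89.5.

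Timp1 lies inside Syn1 on the opposite strand of the X chromosome. Syn1, a synapsin gene best known from neurons, was listed with 253 ± 291 normalized reads in the controls and 152 ± 81.5 in the LOY group (± SD over 6 libraries each), ranging from 2.75 to 798. Whether reads of Timp1 were counted to Syn1 was not tested.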
